A study of Arabidopsis thaliana with 21 samples.

Results

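The LATERAL ORGAN BOUNDARIES DOMAIN (LBD) genes of Arabidopsis thaliana were compared for occupancy by a Polycomb subunit and a pair of DNA-binding proteins and for the Polycomb mark. Members were the nuclear protein-coding genes whose symbol in the gene table is LBD followed by a number, which gave 35 of 27444 genes. A member was assigned to FIE, AZF1 or BPC1 when the summit of a region in the deposited list lay in the gene or at most 1 kb from either end, and to H3K27me3 when a region touched the same window. What is compared here was chosen by these assignments, that is by the positions of the deposited regions, so counts of assigned members are given as a description, beside the share of all genes, and nothing is read from the difference.

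Chromatin immunoprecipitation with sequencing (ChIP-seq) was done on untreated plants 30 h old, grown on plates under long days (16 h light, 8 h dark). The samples used here fell into 7 groups of 3 biological replicates. FIE was precipitated with an anti-HA antibody from C24 plants in which the fie-11 mutant carries FIE-HA under the FIE promoter, and its control was C24 input of the same line. AZF1 was precipitated with anti-Myc from Col plants carrying gAZF1-Myc, and BPC1 from Col plants carrying gBPC1-Myc. The Col input came from the gAZF1-Myc line, and the series design names it for both proteins. H3K27me3 and its control, total histone H3, were precipitated from Col plants without a transgene. FIE was therefore profiled in another accession than the mark and both DNA-binding proteins. Each protein or mark has 1 deposited list and no value per replicate, so values have no error, no test was run, and the depth behind a region is unknown. Plants were profiled whole, and a strong signal in a few cells cannot be told apart from a weak one in many.

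FIE is the WD40 protein of the plant PRC2 complex. PRC2 is the Polycomb enzyme that trimethylates histone H3 at lysine 27 (H3K27me3), a mark found at repressed developmental genes. BPC1 belongs to the BASIC PENTACYSTEINE proteins, which bind GA repeats, and AZF1 is a C2H2 zinc finger protein. LBD proteins are plant-specific transcription factors named for the LOB domain, a conserved block with a zinc-finger-like motif. Class I proteins also carry a coiled coil like a leucine zipper, through which they pair, and many act in organ boundaries, lateral roots, vascular tissue and pollen. In class II proteins that coiled coil is incomplete, and the best known members act in nitrogen and anthocyanin metabolism. Here LBD37 to LBD42 made up class II, with 6 members, and the other 29 members were class I.

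FIE was assigned to 12 of the 35 members, against 9.33% of all nuclear protein-coding genes. All 6 class II members and 6 of 29 class I members were among them. BPC1 was assigned to 4 members (LBD37, LBD39, LBD41 and LBD42), all of class II, against 5.87% of all genes. This split by class depends on the naming rule. With the 5 genes that have an LBD number only as a synonym, BPC1 was assigned to 2 of 34 class I genes (ASL1 and JLO). FIE was then assigned to 9 of 34, the added genes being ASL1, ASL5 and JLO. AZF1 was assigned to 3 members (LBD41 and LBD42 of class II and LBD2 of class I), against 9.88% of all genes. H3K27me3 touched 2 of 6 class II members and 13 of 29 class I members, against 27.3% of all genes. One member, LBD42, was in all 4 lists, against 1.13% of all genes, and 15 members were in none, against 63.1% of all genes. Class II genes are the longer ones, with a median length of 1624.5 bp against 1159.0 bp in class I, and a longer gene has a wider window. The median over all protein-coding genes was 2078.0 bp, and the part of gene length in these counts was not tested.

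**Figure D1:**
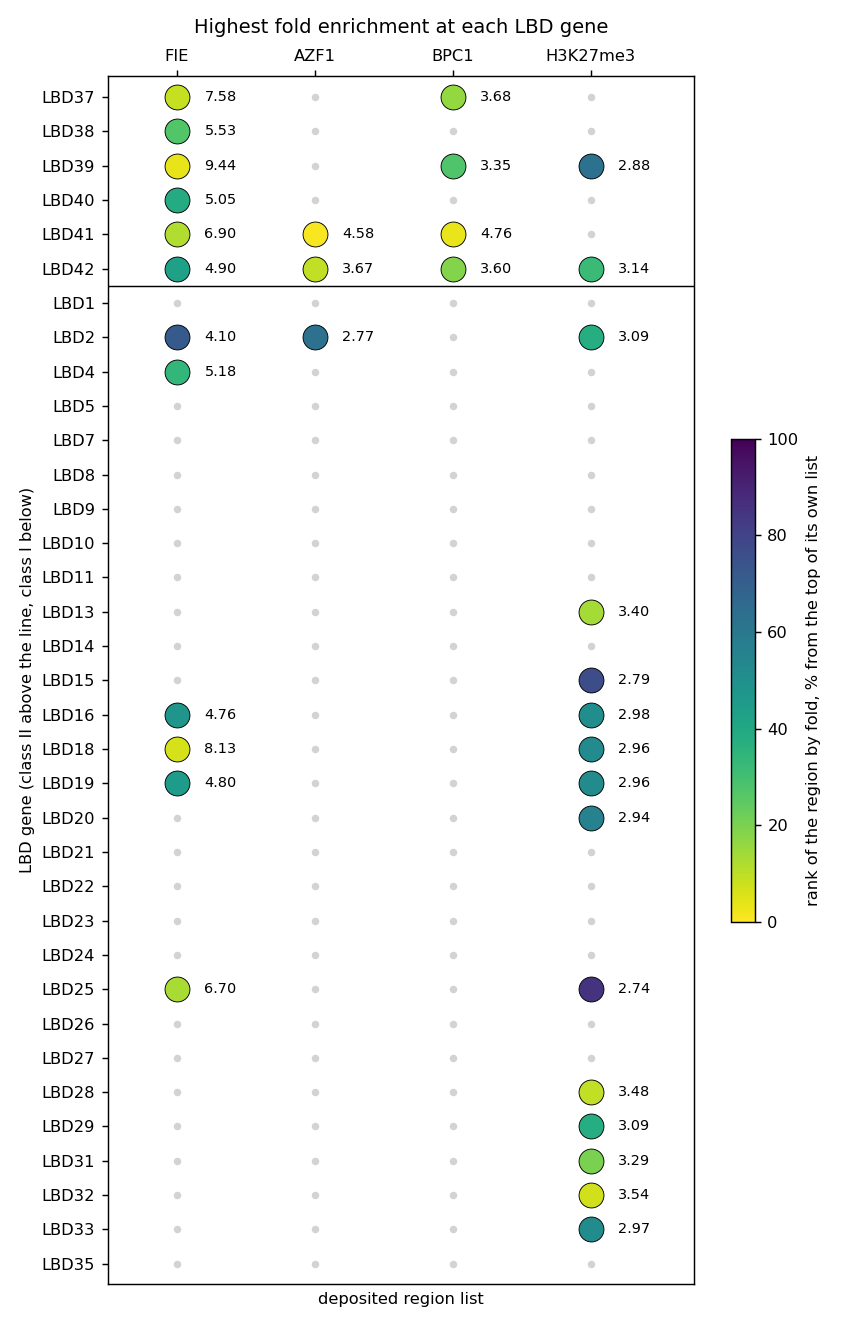
Highest fold enrichment over control of the regions assigned to each LBD gene, in the 4 deposited lists. Rows are genes, with the 6 class II genes above the line and the 29 class I genes below it. Each circle carries the authors' fold enrichment, its colour is the rank of the region in its own list (percent from the top), and a grey dot means no assigned region. The FIE column is filled in every class II row, while most circles of class I lie in the H3K27me3 column.

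LBD37, LBD38 and LBD39, the 3 members of nitrogen and anthocyanin control, carried FIE, against 9.33% of all genes. They encode related repressors of anthocyanin synthesis and of nitrate-responsive genes. Fold enrichment here is the authors' value for a region over its control, and values are compared only within a list. The highest FIE value of the 35 members was at LBD39, where a region of 2156 bp (chromosome 4, 17639036 to 17641191) had a fold of 9.44 with a −log10 q of 59.8. It ranked 185 among the 5006 FIE regions of the nuclear chromosomes, and it ran over the whole gene and past both ends. A second, lower FIE region with a fold of 3.87 had its summit 461 bp outside the gene. LBD39 was the member of this trio with the mark: an H3K27me3 region of 1716 bp with a fold of 2.88 covered 90.4% of the gene and lay wholly within the wide FIE region.

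BPC1 had 2 regions within LBD39, with folds of 2.78 and 3.35. The summit of the first was 6 bp from the FIE summit and that of the other 601 bp from it, and both lay under the wide FIE region. The lower of these values, 2.78, is below 2.94, the median fold of all nuclear BPC1 regions.

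LBD37 carried 3 FIE regions, all with summits inside the gene. Their folds were 5.48 (chromosome 5, 26903821 to 26904001), 7.58 (26904418 to 26905150) and 4.78 (26905287 to 26905583). At the first of these a BPC1 region had a fold of 3.68 and a summit 3 bp away, and at the second a BPC1 region had a fold of 3.57 and a summit 5 bp away. The last FIE region met no region of another list. No H3K27me3 region touched LBD37, and the nearest lay 3873 bp from the gene. FIE and BPC1 regions thus overlapped at LBD37 outside the listed mark, and at LBD39 within it. The BPC1 regions at LBD37 had a −log10 q of 12.6 and 10.3, and the H3K27me3 region at LBD39 had 12.7. All were below the median of their own list, 13.4 in both lists.

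LBD38 had FIE alone. A region inside the gene had a fold of 5.53 (chromosome 3, 18514735 to 18514941), and another, with its summit 297 bp outside, had a fold of 3.53 and a −log10 q of 10.5, close to the lowest value in the list, 10. The nearest BPC1 summit was 11458 bp away and the nearest H3K27me3 region 3207 bp away.

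**Figure D2:**
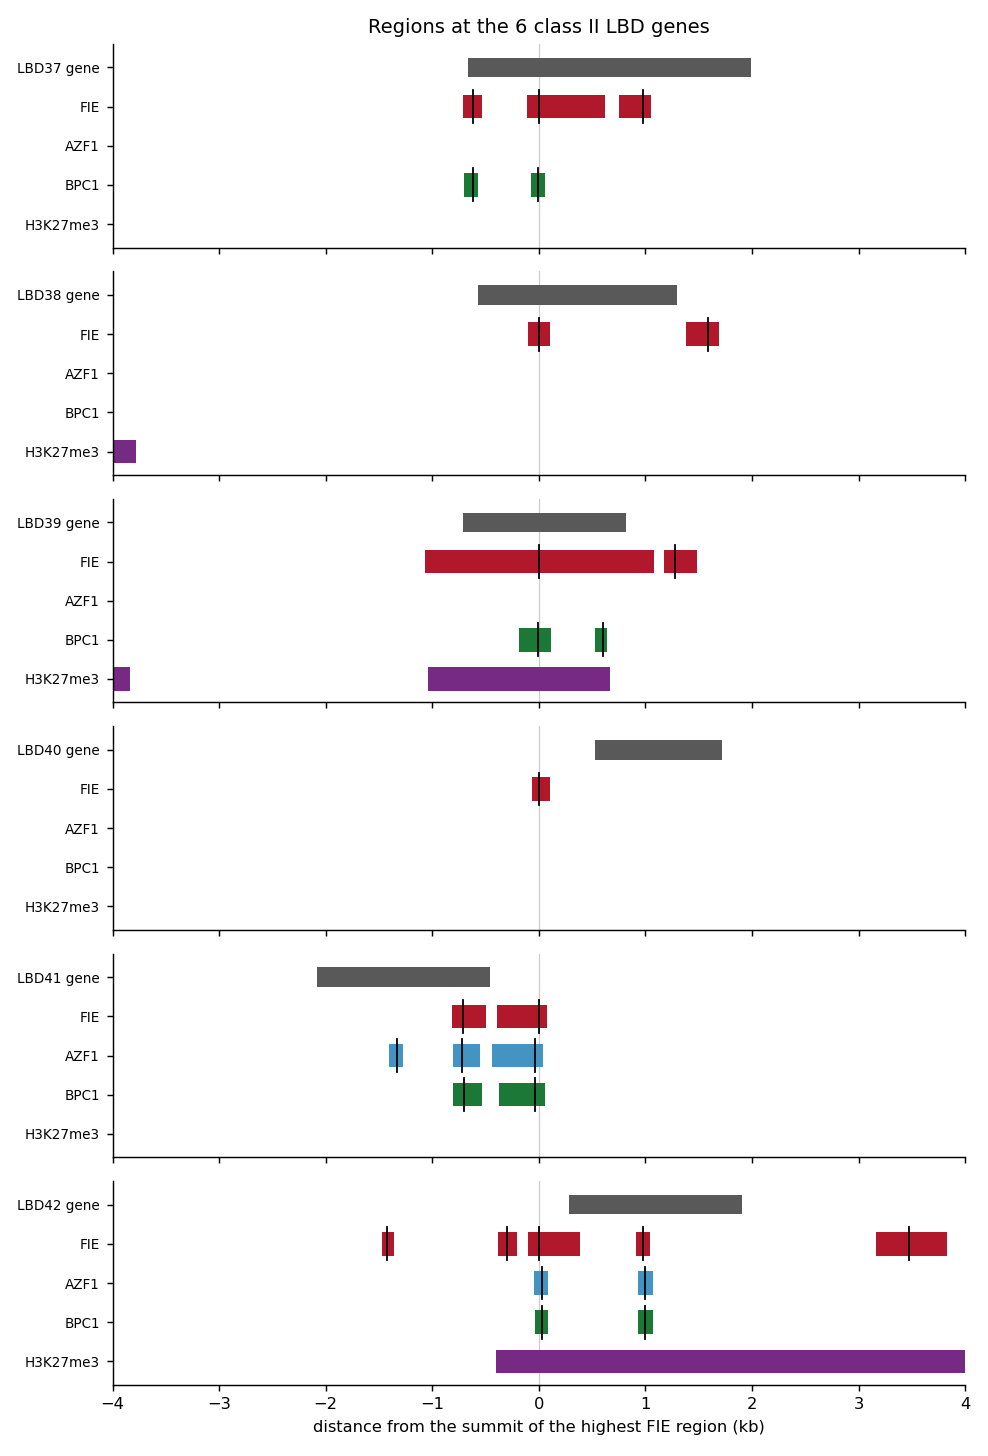
Regions at the 6 class II LBD genes, drawn to scale as distance in kb from the summit of the highest FIE region assigned to the gene. Grey bars are the genes, coloured bars are regions of the 4 lists including those beyond the 1 kb window, and black ticks are summits. BPC1 summits stand under FIE summits at LBD37, LBD39, LBD41 and LBD42, and H3K27me3 regions lie over the genes LBD39 and LBD42.

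LBD41, a gene induced by low oxygen, held the highest AZF1 and BPC1 values of the 35 members and no H3K27me3. Its FIE regions had folds of 6.77 (chromosome 3, 537766 to 538087) and 6.90 (538194 to 538662), so they were almost equal in height, the first inside the gene and the second with its summit 459 bp outside. BPC1 had a fold of 2.94 at the first and 4.76 at the second, which ranked 86 among 2622 BPC1 regions. AZF1 had a fold of 3.17 at the first and 3.74 at the second.

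At the second site of LBD41 the AZF1 and BPC1 summits fell on the same base, 34 bp from the FIE summit. At the first site the FIE summit was 13 bp from that of AZF1 and 10 bp from that of BPC1. Another AZF1 region stood inside the gene with no region of another list over it (537174 to 537308). Its fold of 4.58 ranked 46 among 4464 AZF1 regions, within the highest 1.03% of the list, and the same region was also assigned to the neighbouring gene RAD23C. The nearest H3K27me3 region lay 17720 bp from LBD41, the largest such distance in class II. Over the genome, 131 genes (0.477%) had FIE, AZF1 and BPC1 without the mark.

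LBD42 was the member in all 4 lists. It had FIE regions with folds of 4.42, 4.90 and 3.99, all below the highest value of each other class II member. At the FIE region of 4.90 (chromosome 1, 25706497 to 25706989), which reached into the gene and had its summit 283 bp outside it, AZF1 and BPC1 each had a fold of 3.48 and again shared a summit base, 27 bp from that of FIE. At the FIE region of 3.99, inside the gene (25707511 to 25707640), AZF1 had a fold of 3.67 and BPC1 one of 3.60, with summits 28 bp and 20 bp from that of FIE. The FIE, AZF1 and BPC1 regions at this site were also assigned to the neighbouring gene BBX14. An H3K27me3 region of 5890 bp with a fold of 3.14 covered the whole gene. This domain also touched the windows of BBX14, AT1G68526 and KCS6. In a recount, each H3K27me3 region was counted only for the gene it overlapped by the most bp, and each summit only for its nearest gene. LBD42 then lost the mark, although the domain covered it whole, and no member was in all 4 lists.

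LBD40 had a single FIE region with a fold of 5.05 (chromosome 1, 25053078 to 25053246). Its summit lay 528 bp from the gene, farther than the nearest summit of any other assigned member, and it met no region of another list. With genes extended by 500 bp instead of 1 kb, LBD40 was not assigned, which left 5 of 6 class II members with FIE.

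The lateral root genes are all in class I. LBD16, LBD18, LBD29 and LBD33 act in lateral root formation downstream of auxin response factors, and LBD18 also acts in the differentiation of water-conducting cells. Of the 5 lateral root members, 4 carried H3K27me3, against 27.3% of all genes, and 2 of these carried FIE as well, against 9.33%. AZF1 and BPC1 were assigned to 0 of the 5, but at shares of 9.88% and 5.87% over all genes few or none would be met in so small a group. LBD18 had the highest FIE value of class I, 8.13 (chromosome 2, 18718195 to 18718517), which ranked 329 of 5006, with a second region of 7.01 beside it (18718613 to 18718938). LBD16 had FIE folds of 4.76 and 4.13, the first near the median of 4.70 over all nuclear FIE regions and the second below it. LBD29 and LBD33 were covered by H3K27me3 over their whole length, with folds of 3.09 and 2.97, but the nearest FIE summits were 5221 bp and 38078 bp away. LBD14, the other member of the lateral root group, was in none of the lists. LBD17, also of this group, has ASL15 as its symbol and was left out by the naming rule. It had H3K27me3 alone (3.05).

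LBD18 and LBD19 lie side by side and shared a single H3K27me3 domain of 12898 bp with a fold of 2.96 (chromosome 2, 18708397 to 18721294), so their marks are not independent. Their FIE regions were separate. That of LBD19 had a fold of 4.80 and a summit 288 bp outside the gene, lower than both regions at LBD18.

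**Figure D3:**
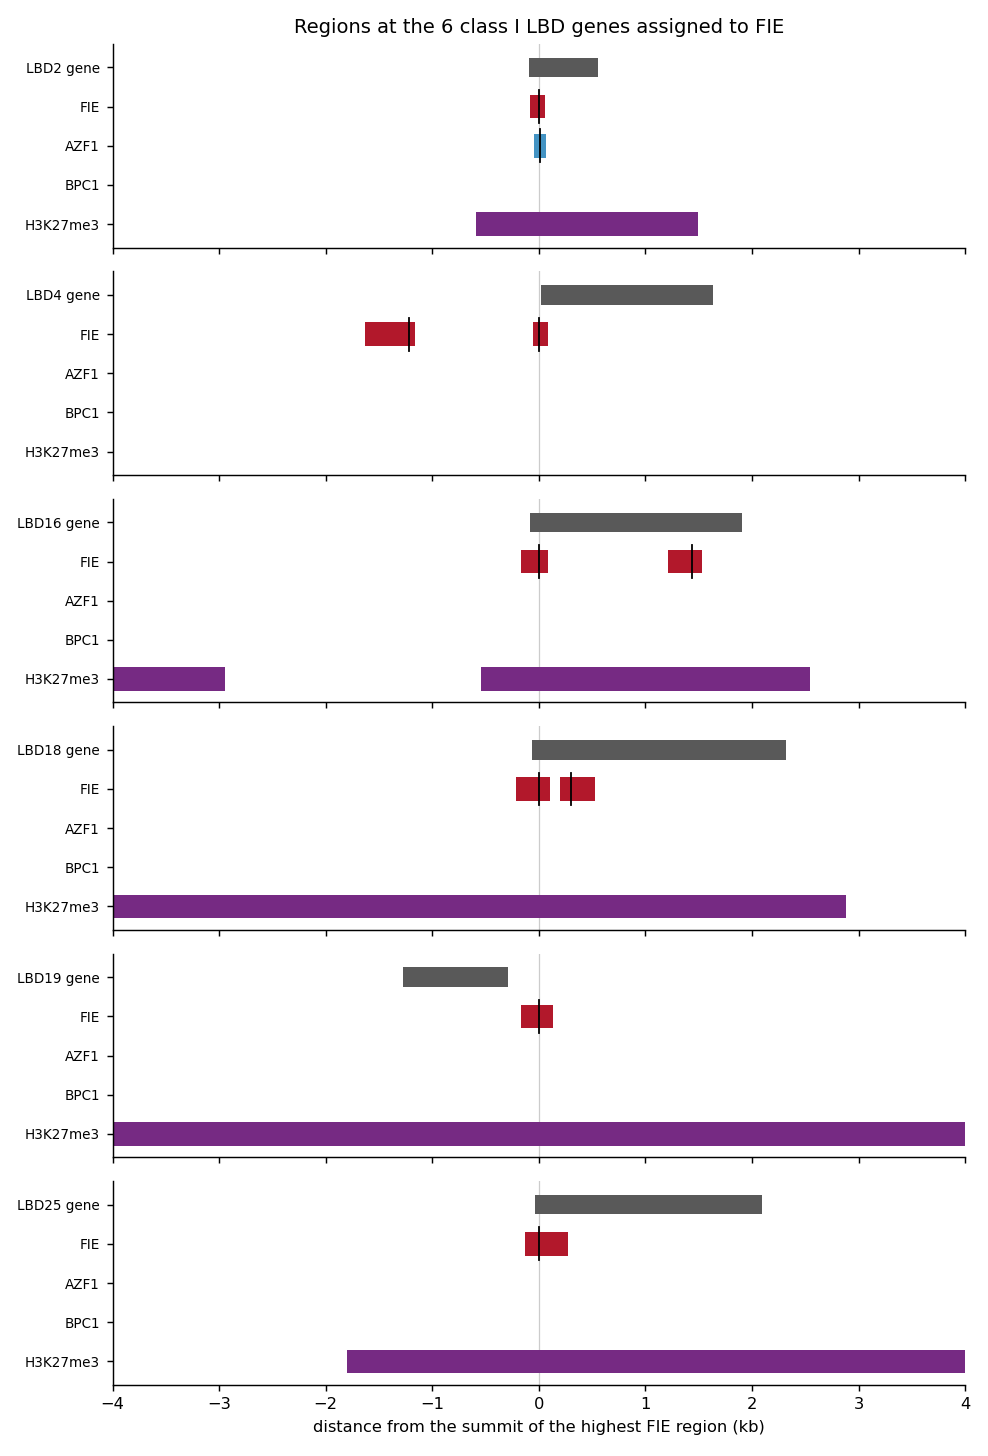
Regions at the 6 class I LBD genes assigned to FIE, drawn as distance in kb from the summit of the highest FIE region of each gene, with genes in grey, regions in colour and summits as black ticks. H3K27me3 covers LBD2, LBD16, LBD18, LBD19 and LBD25 and is absent at LBD4, and the AZF1 region at LBD2 is the only factor region drawn.

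Among vascular and cambium members, 2 of 6 carried FIE, against 9.33% of all genes, and 3 carried the mark, against 27.3%. LBD4, which acts at the boundary of procambium and phloem, was the class I member with FIE and no H3K27me3. Its FIE region of fold 5.18 (chromosome 1, 11212879 to 11213020) had its summit 21 bp outside the gene, and a further region of fold 3.81 lay 1236 bp away, just beyond the window. LBD15 lay inside an H3K27me3 domain of 11093 bp with a fold of 2.79, and FIE and BPC1 regions overlapped that domain 2111 bp and 3641 bp from the gene, outside its window. LBD31 had H3K27me3 with a fold of 3.29 over 92.3% of its length. LBD1 and LBD11, which act in the cambium, were in no list, although an H3K27me3 region of fold 2.74 ended 1968 bp from LBD11. LBD3 (symbol ASL9) and LBD30 (symbol JLO), also of this group, were left out by the naming rule. LBD3 had H3K27me3 alone (3.35), and LBD30 had FIE (8.10), BPC1 (up to 5.16) and H3K27me3 (3.37).

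Of the 4 pollen members, 3 were in none of the lists, close to the 63.1% of all genes, namely LBD10, LBD22 and LBD27 (SIDECAR POLLEN), which act in pollen development. LBD25, which acts with them and in auxin response, had a FIE region of fold 6.70 at the edge of the gene (chromosome 3, 10238421 to 10238828) under an H3K27me3 domain of 6141 bp. That domain had the lowest H3K27me3 fold of the 35 members, 2.74, and it also touched the window of OLEO4, an oleosin gene. LBD36, also of the pollen group, has ASL1 as its symbol and was left out by the naming rule. It was in all 4 lists, with FIE at 7.06 and H3K27me3 at 3.82.

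Of the members without an assigned role group, LBD2 was the class I gene with AZF1. Its FIE region of fold 4.10 (chromosome 1, 1920317 to 1920454) and its AZF1 region of fold 2.77 (1920355 to 1920464) had summits 9 bp apart inside the gene, under an H3K27me3 region of 2080 bp and fold 3.09. The FIE and AZF1 regions were both assigned to the neighbour AT1G06270 as well. LBD13 (3.40), LBD20 (2.94), LBD28 (3.48) and LBD32 had H3K27me3 without FIE. LBD20 is a susceptibility gene for Fusarium oxysporum. LBD28 had the narrowest region over a member, 1188 bp, which covered 72.2% of the gene. LBD32 had a region of fold 3.11 over the gene and one of 3.54, the highest of the 35 members, 924 bp from it. The remaining LBD5, LBD7, LBD8, LBD9, LBD21, LBD23, LBD24, LBD26 and LBD35 were in no list. LBD5 was the member that lies in a gene-poor window (fewer than 100 protein-coding genes per 1 Mb).

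Over the family, 21 FIE regions were assigned to 12 members, 13 of them to class II and 8 to class I. Of the class II regions, 7 overlapped BPC1, 4 AZF1 and 4 H3K27me3, and 5 met no other list. Of the class I regions, 7 overlapped H3K27me3, 1 AZF1 and 0 BPC1. Of the 12 members with FIE, 7 also had the mark, against 66.2% of all genes with FIE, and 3 (LBD4, LBD38 and LBD40) were in no other list, against 22.1%. Of the 15 members with the mark, 7 had FIE, against 22.6% of all genes with H3K27me3. By gene, a FIE region overlapped H3K27me3 at 2 of 6 class II and 5 of 6 class I members with FIE, against 62.2% of all genes assigned to FIE. A FIE region overlapped BPC1 at 4 of 6 class II and 0 of 6 class I members with FIE, against 28.1%, and AZF1 at 2 and 1, against 21.5%. At least 2 FIE regions were found at 5 class II and 2 class I members, against 28.6% of all genes assigned to FIE, and at least 3 at LBD37 and LBD42, against 8.48%. A FIE summit lay inside the gene at 5 class II and 4 class I members, against 62.6%.

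The heights of the FIE regions were moderate. The median of the highest FIE fold per gene was 6.22 over the 6 class II members (range 4.90 to 9.44) and 4.99 over the 6 class I members (4.10 to 8.13), and these ranges overlapped. The median over all 2560 genes assigned to FIE was 4.78 and the highest 26.84. Of the 21 regions, 3 were among the highest 10% of all FIE regions, at LBD39, LBD18 and LBD37. The BPC1 median over its 4 members was 3.64, against 3.07 over 1610 genes. H3K27me3 folds were close together, with a median of 3.01 over 2 class II and 2.98 over 13 class I members, against 3.03 over 7492 genes. The mark covered the whole gene at 12 of 15 members, against 43.1% of all genes assigned to H3K27me3, and LBD genes are short, with a median of 1278.0 bp.

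**Figure D4:**
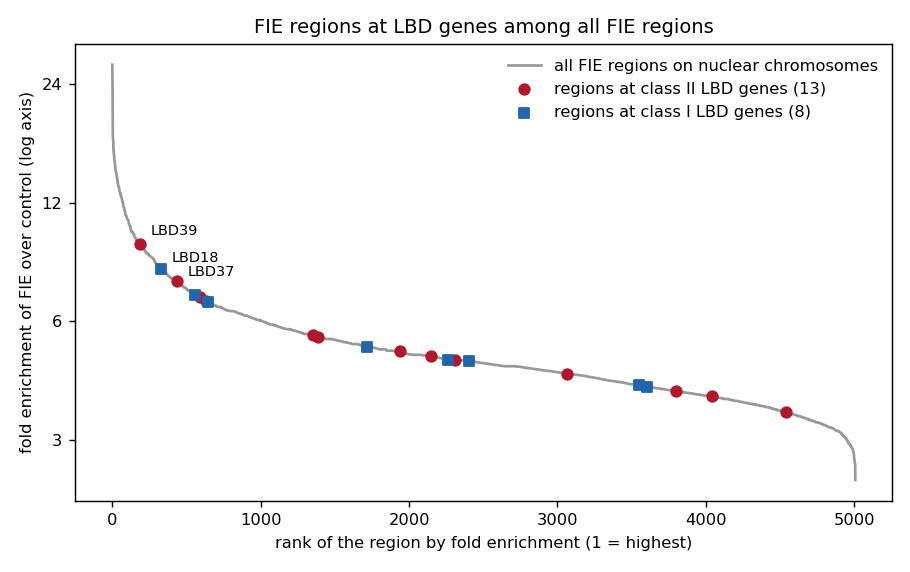
Fold enrichment of all 5006 FIE regions on the nuclear chromosomes against their rank (grey line, log axis), with the 13 regions at class II LBD genes (circles) and the 8 at class I LBD genes (squares). Member regions run from rank 185 at LBD39 to rank 4541 at LBD38, and none is among the steepest part at the left end.

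At each member with FIE and a factor, at least 1 pair of summits lay close together, as at other genes with both. The smallest distance between a FIE and a BPC1 summit was 3 to 20 bp at the 4 members with both, against a median of 12.0 bp over 772 genes with both. Between FIE and AZF1 it was 9 to 27 bp at 3 members, against a median of 15.0 bp over 659 genes. Not every factor summit had a FIE summit beside it: an AZF1 summit at LBD41 was 626 bp from the nearest one and a BPC1 summit at LBD39 601 bp. At LBD41 and LBD42 the smallest distance between AZF1 and BPC1 was 0 bp, against a median of 4.0 bp over 947 genes. Both factors have the Col input as their control in the design and were precipitated through the same tag, and the part of this in their common positions was not tested.

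No assignment of a member to a narrow list rested on a summit near the edge of the 1 kb window. For FIE the farthest assigned member was LBD40, at 528 bp, and the nearest unassigned one LBD15, at 2111 bp. For AZF1 and BPC1 each assigned member had a summit inside the gene, and the nearest unassigned members were LBD33, 1760 bp from AZF1, and LBD28, 2514 bp from BPC1. Each member with H3K27me3 was touched by a region in the gene itself, and the nearest member without it was LBD11, at 1968 bp. With genes extended by 2 kb, LBD33 thus gained AZF1 and LBD11 gained H3K27me3.

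**Figure D5:**
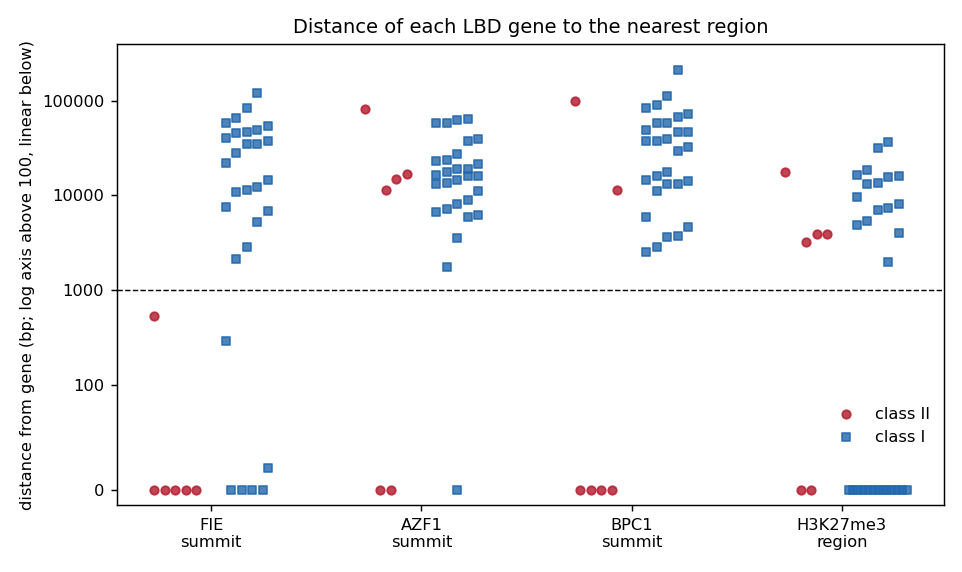
Distance in bp from each of the 35 LBD genes to the nearest FIE, AZF1 or BPC1 summit or H3K27me3 region (log axis above 100, linear below), with class II as circles and class I as squares. The dashed line is the 1 kb limit, and no gene lies between 528 bp and the limit or between the limit and 1760 bp.

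Genes linked to the members in textbook pathways were read from the same lists, in which 9.33% of all genes were assigned to FIE, 27.3% to H3K27me3, 5.87% to BPC1 and 9.88% to AZF1. Of 10 organ boundary genes and partners, 9 were assigned to FIE, 8 to H3K27me3, 6 to BPC1 and 4 to AZF1. LOB, AS2 and JLO among them are LOB domain genes themselves, without LBD as their symbol. BOP1 and STM were in all 4 lists, with the highest FIE folds of the set, 13.89 and 14.15. The set includes AS1, the MYB partner of the LOB domain protein AS2, with a low FIE region (3.48) and AZF1 (2.50) outside the mark. These FIE and AZF1 summits lay near the edge of the window, 942 bp and 922 bp outside AS1. The homeobox gene KNAT6, also in the set, had 4 FIE regions of up to 8.15, BPC1 (3.64) and no H3K27me3. Upstream in auxin signalling, 1 of 9 was assigned to FIE (AUX1) and 3 to H3K27me3, both close to the shares of all genes, 3 to BPC1 and 2 to AZF1. ARF19, IAA12 (BODENLOS), the auxin carrier LAX3 and GATA23 were in no list. ARF7, which acts with ARF19 upstream of LBD16 and LBD29, had BPC1 (3.50) alone. Its summit lay 871 bp outside the gene, and the region was also assigned to CPN20. IAA14, a repressor of ARF7 and ARF19, had H3K27me3 (2.81) alone. Of the auxin genes with the mark, ARF5 had its H3K27me3 region 426 bp outside the gene. Of 10 downstream or parallel genes, 6 had FIE, 6 the mark, 4 BPC1 and 4 AZF1. PUCHI of lateral root formation (FIE 8.91), CUC2 (10.11) and CUC3 (5.46) were in all 4 lists. CUC1 had BPC1 (3.78) alone, and the xylem vessel gene VND7 had FIE at 6.69. The expansin gene EXPA14 had the mark over the whole gene and a FIE summit 859 bp outside it. BAS1 had a FIE summit 21 bp outside the gene. Its H3K27me3 regions lay 519 bp and 826 bp away and covered none of the gene. EXPA17, E2FA and VND6 were in no list.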

How the data were processed

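The data are 4 deposited lists of enriched regions from ChIP-seq, 1 per protein or mark, with no replicate column, from 21 samples in 7 groups. The submitters' processing notes name MACS2 2.1.1.20160309, Bowtie2 and bedtools, with TAIR10 as the build. Neither their settings nor the way of combining replicates is given in the sources used here. The authors' files give a fold enrichment (a ratio over the control), −log10 p, −log10 q and a score, which in 100% of rows is −log10 q times 10 without its decimals. No region has a −log10 q under 10. Narrow lists add the summit.

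The 827 of 16859 regions on organelle genomes were left out. Gene names and windows came from a RefSeq table of TAIR10.1, on the assumption that its 5 nuclear chromosomes have the coordinates of TAIR10. Region coordinates are 1-based on TAIR10. The table has no strand, so upstream and downstream were not told apart, and promoter motifs, protein comparisons and sequences were not analysed here. Of 29 linked genes, 29 were matched by symbol or synonym. Assignment was tested on simulated single-base positions inside gene windows and run in Python 3.11.15 with pandas 2.3.3. That test did not cover the touching rule for wide H3K27me3 regions.

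Overlaps counted from 1 bp. Members assigned to FIE or to at least 2 lists are described with their values and the others with their lists. Members, classes and gene lists were chosen with earlier results of these data known, and no test was run.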

Additional observations from a re-analysis of the deposited data

How the results depend on the processing

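Of 113 recounts of 17 results, 103 stayed within 1.5 times the reported count. Some of these could not differ. The synonym genes are all of class I, so adding them left each class II count as it was. Letting any base of a narrow region count could not alter the H3K27me3 counts. The counts by class were added after seeing the data. When genes with LBD as a synonym joined, AZF1 members numbered 5, members in all 4 lists 2, and class I members with AZF1 3 and with BPC1 2. In another recount, each summit counted only for its nearest gene, and each H3K27me3 region only for the gene it overlapped by the most bp. There, 0 members were in all 4 lists and 1 class II member kept H3K27me3, LBD39. Choosing by overlap in bp favours longer genes. When a list was limited to regions above its median −log10 q, 3 members had a FIE region that overlapped H3K27me3 (LBD2, LBD16 and LBD42), 1 class II member had the mark (LBD42) and 0 class I members had AZF1; this alternative counts fewer regions by construction. With genes extended by 2 kb, 2 class I members had AZF1. Class II members with FIE numbered 5 or 6 under every alternative run. Class I members with FIE numbered 4 to 9, with 9 reached when the synonym genes joined. No paired analysis was possible because the lists hold no values per replicate, and for the same reason no replicate could be left out. Depth is unknown, so the absence of a listed region does not show the absence of the protein or mark.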

Other observations

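The gene table gives 5 further genes an LBD number only as a synonym, all of class I. ASL1 (LBD36) was in all 4 lists: a FIE region of 2565 bp with a fold of 7.06 (chromosome 5, 26706092 to 26708656) overlapped 3 BPC1 regions with folds of 2.77, 3.30 and 2.94 and an AZF1 region of 2.78, and its H3K27me3 region of 3.82 ranked 74 among 3940. The boundary gene JLO (LBD30), next to LBD31, had FIE at 8.10 over 1241 bp, BPC1 at 3.94 and 5.16 (rank 50 of 2622 for the higher), and H3K27me3 at 3.37. ASL5 (LBD12) had FIE (4.47), AZF1 (2.44) and H3K27me3 (3.34). ASL9 (LBD3) and ASL15 (LBD17) had H3K27me3 alone, at 3.35 and 3.05. With these genes, BPC1 was assigned to 2 of 34 class I genes instead of 0 of 29, and FIE to 9 instead of 6.

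The founding genes of the family were also listed. LOB, expressed at organ boundaries, had 4 FIE regions with folds of 3.91 to 5.41, an AZF1 region of 3.55 and an H3K27me3 domain of 6957 bp. AS2, which acts in leaf polarity, had 3 FIE regions with folds of 3.33 to 5.73 under an H3K27me3 domain of 17100 bp, wider than that of any member.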
